A study of Mus musculus with 8 samples.

Results

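Cholesterol biosynthesis was described here by 8 genes, measured in cultured primary chondrocytes of mouse articular cartilage under IL-1β or vehicle. The genes were taken by name from the count table, and all 8 were found among its 54658 gene symbols: *Hmgcs1*, *Idi1*, *Fdps*, *Sqle*, *Lss*, *Cyp51* and *Dhcr7*, which encode enzymes, and *Srebf2*, which encodes a transcription factor. Wild-type mice, 3 weeks of age, gave the femoral heads from which the cells were isolated. The methods of the study name high-glucose DMEM with fetal bovine serum as complete medium in their account of transfected mouse cells. They do not state the serum for the samples used here. In 4 samples the cells received IL-1β, a proinflammatory cytokine associated with osteoarthritis, at 1 ng/mL for 24 h, and in the other 4 samples they received vehicle. The labels number the samples 1 to 4 in each group but do not say whether they came from separate animals or cultures, so the tests measure the spread between these samples, which may be technical.

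Cells make cholesterol from acetyl-CoA. The route runs through mevalonate and the isoprenoid farnesyl diphosphate, which also feeds protein prenylation, to squalene, lanosterol and finally cholesterol. The transcription factor SREBP-2, the product of *Srebf2*, is held in the endoplasmic reticulum when sterols are plentiful and is released by proteolysis when they are scarce. It then binds sterol regulatory elements in the promoters of most genes of the route, its own gene included, and serum in the medium is an outside source of cholesterol for cultured cells.

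Total counts were 10992400 to 17104400 with IL-1β and 13971000 to 17456100 with vehicle, and the values of each gene are given as TMM-scaled CPM, counts scaled to a fixed library total. In each library *Gm26917* took the most counts, with 13.2% to 14.6% of the total. Within a group, all pairs of samples differed by more than sampling noise, with a chi-square per degree of freedom of 1.98 to 6.34. Of the 10 chondrocyte markers, *Prg4* was upregulated and the other 9 were downregulated, and their summed level was 6137 to 6663 CPM with IL-1β against 16981 to 17565 CPM in vehicle samples. The endothelial markers summed to at most 1.71 CPM in any sample, the adipocyte markers to at most 0.505 CPM and the erythroid markers to at most 0.270 CPM. Of 8 macrophage and leukocyte markers only *Cd68*, called higher at a log2 fold change of 0.67, and *Lyz2*, called lower at -0.60, passed the filter on low counts. *Lyz2* lost its call without that filter (adjusted p = 0.075 by edgeR). *Cd3e* was at 0 in all samples and *Itgam* at 0 in all vehicle samples. The 8 together summed to 16.2 to 19.2 CPM with IL-1β and 11.8 to 12.8 CPM in vehicle. The 4 osteoblast markers summed to 25.9 to 31.4 CPM with IL-1β and 84.0 to 94.9 CPM in vehicle. The part of these markers in the results on cholesterol genes was not tested, and in bulk RNA fewer cells of a type and less RNA per cell cannot be told apart.

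Promoter sequences are shown first, for the genes in which the search found a match, because the sterol regulatory element is the sequence through which SREBP-2 acts on the route. The sequences are from RefSeq (GRCm38.p6), in windows from 250 bases before to 50 bases after an annotated start. Such windows were found for 6 of the 8 genes, 8 windows in all, and not for *Fdps* and *Sqle*. The letters TCACNCCAC were searched on both strands. They occurred without mismatch in 1.24% of all 32851 mouse promoter windows and with at most 1 mismatch in 24.2%. Counted per gene, these shares were 1.44% and 26.7%. *Hmgcs1* alone among the 6 genes held an exact match, 137 bases before its start at chr13:119690214-119690222, and it also held a match with 1 mismatch at 220 bases before the start. The 250 bases upstream of *Hmgcs1* (chr13:119690101-119690350, plus strand) are given 5′ to 3′, with both matches in capitals.
Hmgcs1 upstream: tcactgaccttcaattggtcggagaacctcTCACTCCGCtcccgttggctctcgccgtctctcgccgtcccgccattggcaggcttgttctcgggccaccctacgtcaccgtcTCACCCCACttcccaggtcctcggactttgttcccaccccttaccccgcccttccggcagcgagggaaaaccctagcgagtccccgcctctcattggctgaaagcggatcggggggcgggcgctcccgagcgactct

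*Srebf2*, *Cyp51* and *Dhcr7* held a match with 1 mismatch, and each match is shown in capitals within 29 bases in the direction of the gene. The stretch of *Srebf2* is chr15:82147097-82147125 (plus strand), that of *Cyp51* is chr5:4104787-4104815 (minus strand), and that of *Dhcr7* is chr7:143823259-143823287 (plus strand). *Dhcr7* had more than 1 window, and its other windows held no such match. Its match lies 130 bases before a later annotated start, and downstream of the first base of the gene at chr7:143823145.
Srebf2: tgacgcaccaTCACCCCATgagccgcttc
Cyp51: ccagctctgcTGACGCCACataggccgag
Dhcr7: ggaaaagggcTCACTTCACcttatagctc

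No match with at most 1 mismatch was found in the windows of *Lss* and *Idi1*, which says only that these letters are not there. The letters CCAAT are the box bound by NF-Y, a factor that acts together with SREBPs on many promoters. They occurred in at least 1 window of each of the 6 genes, against 41.1% of all genes with a window. Of all windows, 37.4% held them. The *Hmgcs1* window held 4 of them. The E-box CACGTG was found only in a window of *Dhcr7* and in 7.15% of all windows. A match of letters is a description and not a measured site of binding.

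Counts were compared between the groups to ask which of the 8 genes responded to IL-1β. *Hmgcs1* and *Cyp51* were downregulated, with a fold of 0.764 and 0.802, *Sqle* and *Srebf2* were slightly upregulated, and *Idi1*, *Lss* and *Dhcr7* did not pass the threshold. The test was edgeR's quasi-likelihood test on 14404 genes, those that exceeded 1 CPM in 4 samples or more, with Benjamini-Hochberg adjustment over all of them, and a gene was called at an adjusted p under 0.05. Of the 8 genes, 7 passed the filter and 4 were called, against 40.2% of all genes tested. The 2 genes called lower stand against 19.8% of all genes, and the 2 called higher against 20.4%. None of the 8 was a DEG, defined as called with a log2 fold change beyond 1, whereas 5.21% of all genes were; the estimate farthest from 0 was -0.48, for *Idi1*. The median log2 fold change of the 7 tested genes was -0.09, and that of all genes was 0.00. The values of the IL-1β and vehicle samples did not overlap in 4 of the 7 genes, against 36.8% of all genes tested.

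**Figure D1:**
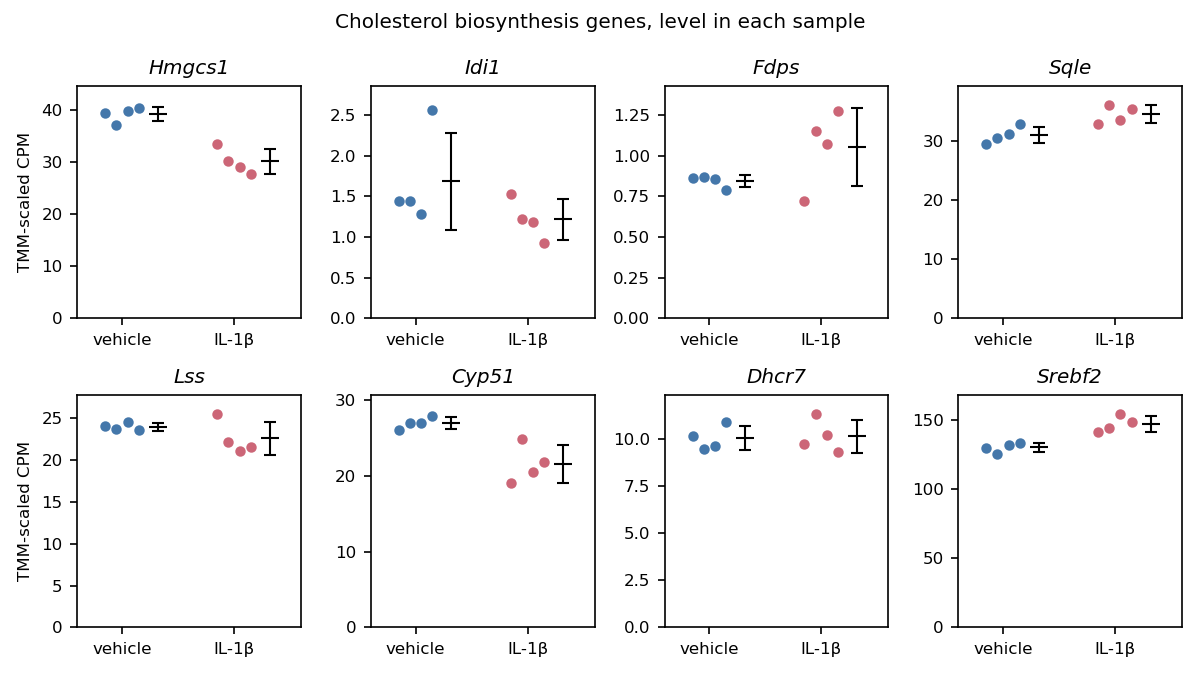
Level of each of the 8 genes in each sample, as TMM-scaled CPM on axes that start at 0, with 4 vehicle samples (blue) and 4 IL-1β samples (red). The bar beside the points is the mean ± SD. *Hmgcs1* and *Cyp51* were lower in all IL-1β samples than in any vehicle sample, and *Srebf2* was higher in all of them.

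*Hmgcs1* encodes the cytosolic synthase that makes hydroxymethylglutaryl-CoA, the precursor of mevalonate. The gene lies at chr13:119690379-119708260 on the plus strand. Its level in IL-1β replicates 1 to 4 was 33.3, 30.1, 29.1 and 27.7 CPM, and in vehicle replicates 1 to 4 it was 39.5, 37.1, 39.8 and 40.4 CPM. Each IL-1β sample lay below each vehicle sample. The means were 30.1 ± 2.39 CPM with IL-1β and 39.2 ± 1.41 CPM in vehicle (SD, n = 4 each). *Hmgcs1* fell by 23.6% (95% confidence interval -29.2% to -17.5%), a log2 fold change of -0.39 with an SE of 0.05 and an adjusted p of 8.62e-07 by edgeR's quasi-likelihood test. This was the smallest adjusted p among the 7 genes tested. An exact two-sided permutation test of *Hmgcs1* gave p = 0.0286, the smallest value that the 70 ways to choose 4 of 8 samples allow. The exact match of letters given above lies upstream of *Hmgcs1*, and its part in this difference was not tested.

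*Idi1* encodes the isomerase that converts isopentenyl diphosphate to dimethylallyl diphosphate, the starter unit of the isoprenoid chain. It lies at chr13:8885501-8892451 on the plus strand. *Idi1* was read by 13 to 20 counts with IL-1β and 18 to 39 counts with vehicle. These were 1.53, 1.23, 1.19 and 0.922 CPM in IL-1β replicates 1 to 4 and 1.44, 1.44, 1.28 and 2.56 CPM in vehicle replicates 1 to 4. The groups overlapped, and vehicle replicate 4 stood above all other samples. The log2 fold change was -0.48 with an SE of 0.26, an adjusted p of 0.146 by edgeR and a 95% confidence interval of the fold from 0.498 to 1.03. Without vehicle replicate 4 it was -0.22, with an adjusted p of 0.56. A decrease as large as that of *Hmgcs1* is inside this interval. The coefficient of variation of *Idi1* was 35.1% with vehicle, where the counts alone give 19.3%.

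*Fdps* encodes farnesyl diphosphate synthase, at the branch between sterols and prenylated products. It lies at chr3:89093588-89101959 on the minus strand. *Fdps* had only 8 to 18 counts in any sample and exceeded 1 CPM in 3 samples, so it was not tested with the other genes. It was measured at 0.721, 1.15, 1.07 and 1.28 CPM with IL-1β and at 0.865, 0.867, 0.856 and 0.789 CPM in vehicle. The groups overlapped through IL-1β replicate 1, the lowest of all samples. In the fit without a filter the log2 fold change was 0.33 with an SE of 0.31 and an adjusted p of 0.568 by edgeR.

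The low value of *Fdps* is uncertain, because much of its sequence is shared. Of the 50-base words in its longest coding transcript, 86.4% also occur in transcripts of 8 other annotated genes. They include the overlapping protein-coding gene *Gm43738* on the same strand, with 77.3% of the words and 1124 shared exon bases, and the processed pseudogene *Gm3571*, with 40.1%. *Gm43738* had 0 to 3 counts and *Gm3571* had 3 to 16. The other pseudogenes sharing words with *Fdps* are *Gm5873*, *Gm8163*, *Gm7979*, *Gm7959*, *Gm48326* and *Gm7513*. How the authors' counting treated reads that fit several genes is not given in the sources used here. *Idi1* shared 30.5% of its words with 5 genes, the pseudogenes *Gm13502*, *Gm35570*, *Gm7654* and *Gm8911* and the opposite-strand transcript *Gm48574*.

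The other 6 genes shared little or none of their sequence. *Hmgcs1* shared 13.6% of its words with *Gm48342*, an antisense gene of 3 to 12 counts. *Lss* shared 4.35% with the antisense gene *4930483K19Rik*. *Cyp51* shared 3.17%, most of it with *Akap9*, which overlaps its 3′ end by 166 exon bases on the opposite strand and had 1464 to 2285 counts. No strand setting of the counting was found, so reads in these overlaps cannot be assigned to either gene. *Sqle*, *Dhcr7* and *Srebf2* shared none.

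*Sqle* encodes squalene epoxidase, an oxygen-dependent and rate-limiting step of the sterol branch. It lies at chr15:59315077-59331192 on the plus strand. It was at 32.9, 36.1, 33.7 and 35.5 CPM in IL-1β replicates 1 to 4 and at 29.6, 30.6, 31.2 and 32.9 CPM in vehicle replicates 1 to 4. The groups did not overlap but nearly touched, with the lowest IL-1β sample at 32.89 CPM and the highest vehicle sample at 32.86 CPM. The means were 34.6 ± 1.53 CPM with IL-1β and 31.1 ± 1.37 CPM in vehicle (SD, n = 4 each). *Sqle* was 1.12-fold higher (95% confidence interval 1.04 to 1.20), a log2 fold change of 0.16 with an SE of 0.05 and an adjusted p of 0.0157 by edgeR. The call was lost with DESeq2 (adjusted p = 0.0566), without IL-1β replicate 2 (0.054 by edgeR) and without vehicle replicate 1 (0.0663 by edgeR).

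*Lss* encodes lanosterol synthase, which folds the epoxide of squalene into the sterol ring system. It lies at chr10:76531588-76557138 on the plus strand. Its values were 25.5, 22.2, 21.1 and 21.6 CPM with IL-1β and 24.1, 23.7, 24.6 and 23.6 CPM in vehicle. IL-1β replicate 1 was above all vehicle samples and the other 3 IL-1β samples were below all of them. The log2 fold change was -0.09 with an SE of 0.06, a confidence interval of -0.22 to 0.03 and an adjusted p of 0.248 by edgeR.

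*Cyp51* encodes the cytochrome P450 that removes a methyl group from lanosterol. It lies at chr5:4081145-4104746 on the minus strand. Its level was 19.1, 24.9, 20.6 and 21.8 CPM in IL-1β replicates 1 to 4 and 26.1, 27.0, 27.0 and 28.0 CPM in vehicle replicates 1 to 4. Each IL-1β sample was below each vehicle sample, and IL-1β replicate 2 came closest to the vehicle range. The means were 21.6 ± 2.46 CPM with IL-1β and 27.0 ± 0.785 CPM in vehicle (SD, n = 4 each). *Cyp51* fell by 19.8% (95% confidence interval -27.0% to -11.9%), a log2 fold change of -0.32 with an SE of 0.07 and an adjusted p of 0.000249 by edgeR. The gene *Akap9*, with which it shares its 3′ end, had far more counts than *Cyp51*, and the part of that overlap in the difference was not tested.

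*Dhcr7* encodes the reductase that completes cholesterol in the last step of the route. It lies at chr7:143823145-143848410 on the plus strand. It was at 9.73, 11.3, 10.2 and 9.29 CPM with IL-1β and at 10.2, 9.47, 9.63 and 10.9 CPM in vehicle. The highest and the lowest of the 8 samples were both IL-1β samples. The log2 fold change was 0.02 with an SE of 0.10 and an adjusted p of 0.913 by edgeR, and its confidence interval of -0.18 to 0.21 excludes a fall as large as the estimate for *Hmgcs1*.

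*Srebf2*, the gene of the transcription factor SREBP-2, lies at chr15:82147181-82205379 on the plus strand. It was at 141, 144, 154 and 148 CPM in IL-1β replicates 1 to 4 and at 129.5, 126, 132 and 133 CPM in vehicle replicates 1 to 4. Each IL-1β sample exceeded each vehicle sample. The means were 147 ± 5.73 CPM with IL-1β and 130.1 ± 3.34 CPM in vehicle (SD, n = 4 each). *Srebf2* was higher by 13.1% (95% confidence interval 7.90% to 18.5%), a log2 fold change of 0.18 with an SE of 0.03 and an adjusted p of 6.31e-05 by edgeR. Its gene also hosts *Mir33*, a miRNA known to repress cholesterol efflux, in an intron without exon overlap. *Mir33* had 0 to 1 counts in these RNA-Seq libraries. The study profiled miRNAs with a separate miRNA-Seq assay, so these counts do not give the level of the miRNA. The transcript *Gm49502*, on the same strand within *Srebf2* but outside its exons, had 13 to 25 counts.

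**Figure D2:**
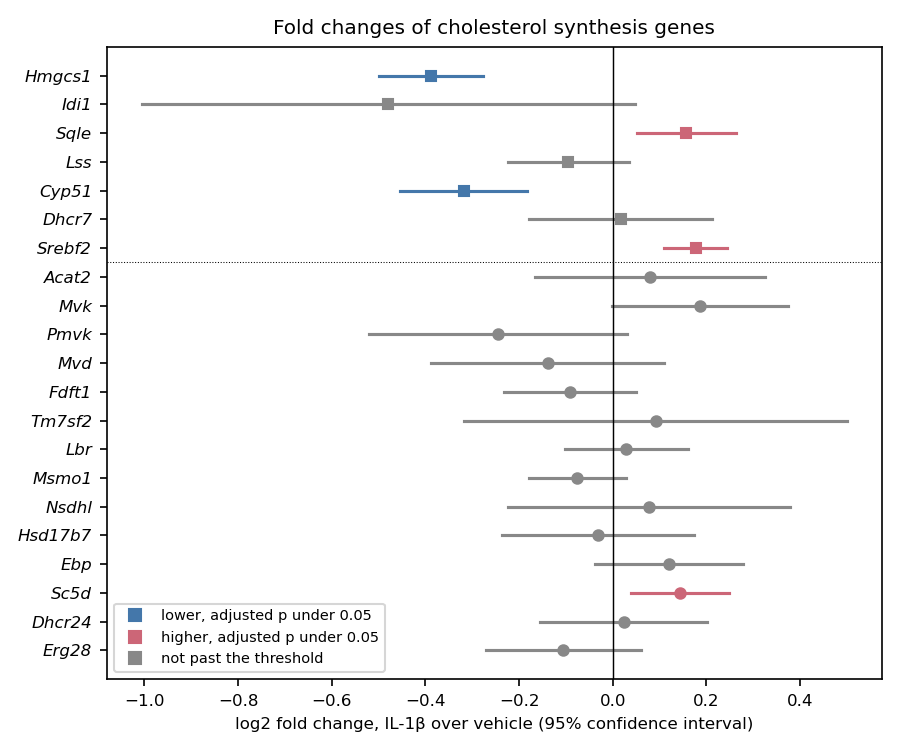
Log2 fold change (IL-1β over vehicle) with its 95% confidence interval for the 7 genes tested (squares, above the dotted line) and for 14 other genes of cholesterol synthesis (circles). The intervals of *Hmgcs1* and *Cyp51* lie below 0, those of *Sqle*, *Srebf2* and *Sc5d* lie above 0, and those of *Idi1*, *Lss* and *Dhcr7* cross it.

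The spread between the samples of a group was set beside the spread that the counts alone give. For *Sqle* the coefficient of variation was 4.41% with IL-1β and 4.42% with vehicle, where the counts alone give 4.55% and 4.49%. For *Hmgcs1* it was 7.94% with IL-1β and 3.60% with vehicle, where the counts give 4.90% and 4.00%. *Cyp51* varied by 11.4% with IL-1β and by 2.90% with vehicle, with 5.75% and 4.82% from counting. *Srebf2*, the gene with the most counts, varied by 3.91% with IL-1β and by 2.57% with vehicle, with 2.20% from counting in both groups. Thus *Hmgcs1*, *Cyp51* and also *Lss* (8.77% and 1.91%, with 5.65% and 5.11% from counting) were more spread with IL-1β than with vehicle. With vehicle, each of these genes varied by less than the counts alone give. *Idi1* went the other way, at 20.5% with IL-1β and 35.1% with vehicle. These differences were not tested.

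Because SREBP-2 acts on the enzyme genes, the genes called in opposite directions were also set against each other within each sample, where no scaling between libraries enters. The counts of *Hmgcs1* per count of *Srebf2* were 0.237, 0.209, 0.189 and 0.187 in IL-1β replicates 1 to 4 and 0.305, 0.296, 0.302 and 0.303 in vehicle replicates 1 to 4. The means were 0.206 ± 0.0231 with IL-1β and 0.301 ± 0.0039 with vehicle (SD, n = 4 each), with no overlap. The counts of *Cyp51* per count of *Sqle*, an earlier step of the same route, were 0.581, 0.689, 0.61 and 0.615 with IL-1β and 0.881, 0.883, 0.865 and 0.852 with vehicle. Their means were 0.624 ± 0.0459 and 0.870 ± 0.0145, again with no overlap. The pairs were chosen with the directions known, so these ratios are descriptions and were not tested. Each of these genes already separated the groups, in opposite directions within a pair, so the lack of overlap was fixed in advance.

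**Figure D3:**
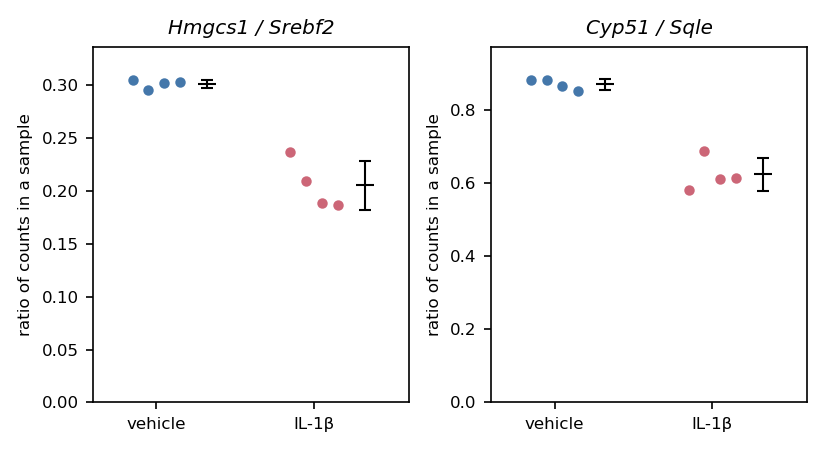
Ratio of the counts of *Hmgcs1* to those of *Srebf2* (left) and of *Cyp51* to those of *Sqle* (right) in each of 4 vehicle samples (blue) and 4 IL-1β samples (red), with the mean ± SD, on axes that start at 0. The vehicle samples lie between 0.296 and 0.305 on the left, above all IL-1β samples at 0.187 to 0.237.

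Levels were compared between genes per kilobase of exon, as CPM divided by the deposited gene length. With vehicle, *Srebf2* was the highest at 18.1 ± 0.465, followed by *Hmgcs1* at 8.53 ± 0.307, *Cyp51* at 6.12 ± 0.178 and *Sqle* at 5.60 ± 0.248 CPM per kilobase (SD, n = 4). *Lss* was at 2.22 ± 0.0425, *Dhcr7* at 1.73 ± 0.111, *Idi1* at 0.480 ± 0.169 and *Fdps* at 0.201 ± 0.00886 CPM per kilobase. Among neighbours in this order, only *Cyp51* and *Sqle* overlapped in their vehicle samples. Among the genes tested, 83.4% had a lower level per length than *Srebf2*, 67.4% a lower level than *Hmgcs1* and 8.40% a lower level than *Idi1*.

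With IL-1β, *Srebf2* stayed highest at 20.4 ± 0.798 CPM per kilobase. *Hmgcs1* at 6.55 ± 0.520 and *Sqle* at 6.23 ± 0.275 CPM per kilobase then overlapped, and *Cyp51* at 4.89 ± 0.557 came below both. *Lss* was at 2.10 ± 0.184 and *Dhcr7* at 1.74 ± 0.150 CPM per kilobase, without overlap. *Idi1* at 0.347 ± 0.0713 and *Fdps* at 0.251 ± 0.0567 overlapped. With the length of the longest coding transcript in place of the deposited length, 4 of the 8 ranks with vehicle changed, since *Sqle* moved above *Cyp51* and *Fdps* above *Idi1*.

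**Figure D4:**
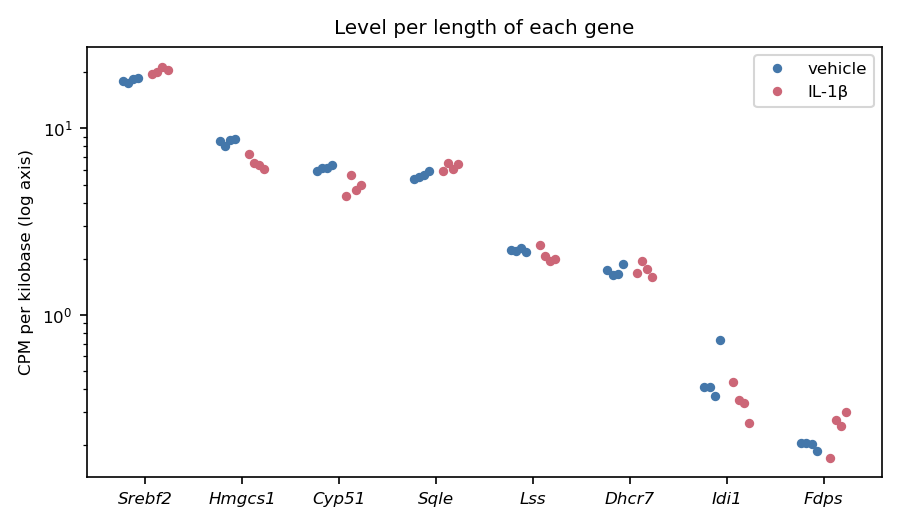
Level per length (CPM per kilobase, log axis) of the 8 genes in each vehicle sample (blue) and IL-1β sample (red), ordered by the vehicle mean. *Srebf2* is highest in both groups, at 18.1 with vehicle and 20.4 with IL-1β, and *Idi1* and *Fdps* lie below 1 in all samples.

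The other steps of the route gave few calls. Of 15 other genes of cholesterol synthesis, all of them tested, 1 was called higher, 1 was called lower and 13 were not called. Thus 13.3% were called against 40.2% of all genes, with a median log2 fold change of 0.02. A gene not called was not shown to be unchanged. *Pmvk*, on 50 to 109 counts per sample, had a confidence interval of -0.52 to 0.03, which includes the estimate for *Hmgcs1*. The gene called higher was *Sc5d*, a desaturase of a late step, with 37.5 ± 1.38 CPM with IL-1β and 33.9 ± 1.92 CPM in vehicle (SD, n = 4 each). Its log2 fold change was 0.14, with an adjusted p of 0.0254 by edgeR. Its groups overlapped. No gene of this list was called higher with DESeq2, with a factor of unwanted variation, without the filter, or without IL-1β replicate 2, IL-1β replicate 4 or vehicle replicate 3. *Fdft1*, squalene synthase, did not overlap between the groups at 16.6 ± 0.375 and 17.7 ± 0.568 CPM but was not called, with an adjusted p of 0.315 by edgeR. The summed level of 22 genes, these 15 and the 7 enzyme genes above, was 347 to 363 CPM with IL-1β and 369 to 378 CPM in the vehicle group.

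Genes that process or sense SREBPs moved in both directions. Of 13 genes tested, 3 were called higher and 3 lower, or 46.2% called, near the 40.2% of all genes. *Erlin1*, a component of the complex that restrains SREBP in the endoplasmic reticulum, was lower at a log2 fold change of -0.24, and its partner *Erlin2* was higher at 0.13. *Mbtps1*, the protease that makes the initial cut in SREBP, was lower at -0.17, and *Srebf1*, the related factor of fatty acid synthesis, was lower at -0.16. *Scap*, the escort of SREBP-2, was called higher at 0.08 with an adjusted p of 0.0479 by edgeR and overlapping groups, and its adjusted p was 0.173 without the filter on low counts.

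Larger differences were found among genes that handle cholesterol after synthesis. All gene lists were chosen with earlier results of these data known, so their shares of called genes are descriptions and not independent support. Of 11 tested genes of efflux, esterification and oxysterol synthesis, 7 were called higher and 2 lower, or 81.8% called against 40.2% of all genes. Of the higher ones 3 were DEGs, against 5.21% of all genes in either direction. *Ch25h*, which makes an oxysterol from cholesterol, rose from 0.220 ± 0.0641 CPM in vehicle to 2.82 ± 0.486 CPM with IL-1β. This is a log2 fold change of 3.65 (95% confidence interval 3.04 to 4.26) that rests on 2 to 4 counts per vehicle sample. *Ch25h* exceeded 1 CPM in the 4 IL-1β samples only, so it passed the filter through the group where it was higher. It is included in the counts above. *Cyp7b1*, which hydroxylates oxysterols further, rose from 1.94 ± 0.191 to 9.62 ± 0.398 CPM, a log2 fold change of 2.30. The exporter *Abcg1* rose from 2.28 ± 0.179 to 5.86 ± 0.611 CPM, a log2 fold change of 1.36. Its relative *Abcg4* was higher at 0.89, on 6 to 20 counts per vehicle sample. *Abcg4* exceeded 1 CPM in 6 samples, with vehicle replicates 3 and 4 at 0.428 and 0.460 CPM. It too passed the filter only with the group where it was higher, and it is included in the counts above. *Cyp46a1* and *Apoa1* did not pass the filter. Of 16 tested genes of uptake and intracellular transport, 7 were called higher and 4 lower, or 68.8% called against 40.2% of all genes. The largest differences were in *Npc2*, a lysosomal cholesterol carrier, at a log2 fold change of 0.68, the lysosomal lipase *Lipa* at 0.66, the HDL receptor *Scarb1* at 0.42 and the lipoprotein receptor *Lrp8* at -0.38. The adjusted p of these 4 genes was at most 0.00114 by edgeR.

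Genes on side branches were mixed. Of 13 genes that turn isoprenoids into non-sterol products, 3 were called higher and 4 lower, or 53.8% called against 40.2% of all genes, with a median log2 fold change of -0.05. The prenyltransferase subunit *Pggt1b* was lower at -0.24 and the dolichol kinase *Dolk* at -0.20, whereas *Nus1*, of the dolichol-forming transferase, was higher at 0.21 and the protease *Rce1* at 0.20. Of 12 tested genes of fatty acid synthesis, 3 were called higher and 6 lower, or 75.0% called against 40.2% of all genes. The desaturase *Fads2* was the only DEG among them at -1.38, and its neighbour *Fads1* was lower at -0.39, whereas *Acss2* and *Acly*, which supply the acetyl-CoA that both routes use, were higher at 0.51 and 0.50. *Thrsp* did not pass the filter. Of 8 cell cycle genes, *Mki67* was lower at -0.32 and the other 7 were not called, or 12.5% called against 40.2% of all genes.

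**Figure D5:**
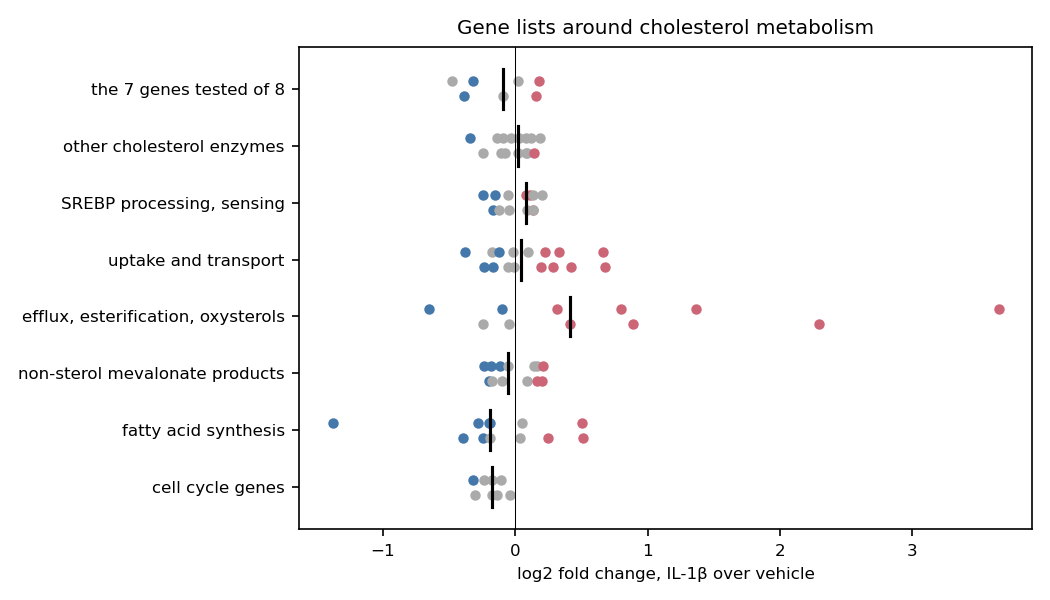
Log2 fold change (IL-1β over vehicle) of each tested gene in 8 lists, with genes called higher in red, genes called lower in blue and the others in grey, and the median of each list as a black bar. The 7 cholesterol genes lie between -0.48 and 0.18, whereas the genes of efflux, esterification and oxysterols reach 3.65. The gene at 3.65 is *Ch25h*, which exceeded 1 CPM only in IL-1β samples.

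Genes outside these lists with the most similar patterns were named by the Pearson correlation, over the 8 samples, of log2(CPM + 1) with the mean standardised profile of the genes called. For *Hmgcs1* and *Cyp51* they were *Zfhx4*, *Skp1a*, *Rap2c*, *Pde4dip* and *Cpeb4*, each with r = 0.99. For *Sqle* and *Srebf2* they were *Akna*, *Maml2*, *Gm26580*, *Fam160a1* and *Sbf1*, each with r = 0.98. All 8 points share the difference between the groups and the library totals, and 1194 of 14294 genes reached r above 0.9 with the former profile and 621 with the latter.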

How the data were processed

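RNA-Seq of 8 samples was used, 4 per group as labelled. The authors trimmed reads with cutadapt, aligned these to mm10 with STAR and GENCODE vM20, and used featureCounts for the gene counts. The deposited values are whole-number counts per gene symbol, with gene lengths in bases (unit: other). The methods name a RUVseq batch correction, and whether it was applied to these counts is not given in the sources used here, nor are strandedness, the handling of reads with several matches, or batches of the samples.

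Counts were TMM-normalized and tested with edgeR 4.0.16 (limma 3.58.1, R 4.3.3), on treatment alone, over 14404 genes that exceeded 1 CPM in 4 samples or more. SE and 95% confidence intervals refer to the log2 fold change, and intervals in percent are converted from them. The code was tested on simulated data. DESeq2 1.42.0, other size factors, other filters, the replicate number, 1 factor of unwanted variation and leaving out each sample were alternatives. Positions and exon overlaps are from GENCODE vM21 (GRCm38), whose exon lengths equal the deposited lengths for all 8 genes. Promoters are from RefSeq. Python 3.11.15 with pandas 2.3.3, numpy 2.4.6 and matplotlib 3.10.9 drew figures and searched sequences.

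A floor of 3 counts is 0.172 to 0.273 CPM depending on the sample. It is a limit from counting error alone, since the reads carry no molecular identifiers and may repeat a molecule. Some values given here lie below it, among them *Ch25h* in vehicle replicate 4 at 0.131 CPM. The 8 genes and all lists were chosen with earlier results of these data known. Named were all 8 genes and genes that overlap or share sequence with them. Also named were up to 4 called genes per list with the largest log2 fold change, and 5 genes most similar to each profile. *Fdft1*, *Pmvk*, *Scap*, the *Cd3e* and *Itgam* markers, *Prg4* and *Gm26917* were named after their values were seen. Some genes of the lists are counted but not reported here by name.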

Additional observations from a re-analysis of the deposited data

Results flagged for a closer look

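Of 80 groups of 4 samples, from 40 genes, 5 held a sample whose gap to the nearest of the others was above Dixon's critical value for 4 samples. Chance flags about 1 in 20, or 4 of 80. For *Idi1*, vehicle replicate 4 was at 2.56 CPM and the other vehicle samples at 1.28 to 1.44 CPM. For *Fdps*, the same sample was at 0.789 CPM and the others at 0.856 to 0.867 CPM, a gap of less than the value of 3 counts. For *Comp*, a cartilage matrix gene, it was at 549 CPM and the others at 523 to 527 CPM. For *Lipa*, IL-1β replicate 2 was at 13.8 CPM and the others at 14.3 to 14.4 CPM. For *Pggt1b*, IL-1β replicate 4 was at 19.5 CPM and the others at 22.1 to 22.4 CPM.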

How the results depend on the processing

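The log2 fold changes of *Hmgcs1* (-0.43 to -0.35), *Cyp51* (-0.39 to -0.27) and *Srebf2* (0.15 to 0.20) kept their direction and call under all 15 alternatives. That of *Sqle* (0.13 to 0.18) kept its direction and lost its call in 3 of 15, so that 1 gene in place of 2 was called higher with DESeq2, and 1 to 2 when each sample was left out. *Lss* (-0.15 to -0.06), *Idi1* (-0.58 to -0.22) and *Fdps* (0.24 to 0.46) kept their direction and were not called. *Dhcr7* reversed, uncalled, to -0.038 without IL-1β replicate 2, -0.01 without vehicle replicate 2 and -0.0045 without vehicle replicate 3; its range with each sample left out was -0.038 to 0.060. Of the 15 other genes of cholesterol synthesis, 2 were called, 1 of them higher. This became 1 called and 0 higher with DESeq2, with 1 factor of unwanted variation and with no filter on low counts, and 1 to 2 called and 0 to 1 higher when each sample was left out. The cause was not tested. The length of the longest coding transcript changed 4 ranks of the 8 levels. The median log2 fold change of all genes was -0.01 to 0.00 under every setting, so no scaling shifted it by over 0.1.

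With the replicate number as a replicate block the same counts were called (4 of the 8 genes, 2 of the other genes of cholesterol synthesis), and *Hmgcs1* was at -0.38. The numbers were not taken as pairs, since samples with the same number did not deviate together (r = 0.04, -0.05, -0.01 and -0.07), and not every sample correlated best with its own number. For *Idi1* and *Fdps* the counts alone give a coefficient of variation of 19.3% to 27.2%, against 2.20% for *Srebf2*.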
